A study of Mus musculus with 3 samples.

Results

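Genes that remodel chromatin or write, erase and read its marks were examined in the bone marrow of castrated mice given testosterone, set against castrated mice given placebo. The genes were taken by symbol, and the families were chosen with earlier results of these data known. They include the Smarc and Chd remodellers, the Kmt and Setd methyltransferases, the Hdac and Kdm erasers and the Brd and Cbx readers. Of 55 such genes on the array, 46 had a value on all 3 arrays, among 3462 genes in all with such values. They comprised 15 remodellers, 9 writers, 12 erasers, 7 readers and 3 other proteins with an ARID domain, a DNA-binding fold. Dnmt3a, Chd3, Cbx2 and Kdm4c had values on 2 arrays, Hdac9, Kdm5b, Sirt3 and Smarcad1 on 1, and Hdac11 on none.

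Each of the 3 two-colour arrays, T1, T2 and T3, paired marrow RNA of a testosterone mouse with that of its matched placebo mouse, so that there is 1 group of 3 pairs. All animals were castrated C57BL/6 mice (castration at 7 weeks), so the placebo mice lacked testicular hormone too, and all were 17 weeks old. The testosterone mice carried a slow-release pellet of 12.5 mg, made to last 60 days, for 4 weeks, and the placebo mice a placebo pellet. The dye on the testosterone sample was Cy5 for T1 and T3, and Cy3 for T2. The labels call the tissue bone marrow and the RNA came from pulverized bone, so bone cells and adhering muscle could be in the extract.

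DNA in the nucleus is wound around histones. Remodellers use ATP to slide or evict these particles, writers attach acetyl or methyl groups to histones or DNA, erasers take the groups off, and readers bind them. In marrow these proteins are known for setting which genes a blood progenitor can use as it commits to a lineage. The BAF complex, a remodeller with Smarca4 or Smarca2 as its motor, is required in mice for early B-cell development, and Kmt2a is required for blood stem cells.

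The stretches of 250 bases before the annotated start are shown for the 3 genes that passed the test below (Smarca4, Hdac5 and Brd1) and for Smarcc1 and Smarcb1, core partners of Smarca4 in BAF. They come from RefSeq on GRCm38.p6, where 35 of the 46 genes had an entry, in 48 windows. Smarca4 lies at chr9:21615919-21616168 and Smarcc1 at chr9:110131774-110132023, both on the plus strand. Smarcb1 lies at chr10:75921615-75921864, Hdac5 at chr11:102230173-102230422 and Brd1 at chr15:88734220-88734469, all on the minus strand. Capitals mark the core of the NRF1 motif, GCGCATGC, and the GC box, GGGCGG, on either strand, with overlapping matches counted each.
Smarca4: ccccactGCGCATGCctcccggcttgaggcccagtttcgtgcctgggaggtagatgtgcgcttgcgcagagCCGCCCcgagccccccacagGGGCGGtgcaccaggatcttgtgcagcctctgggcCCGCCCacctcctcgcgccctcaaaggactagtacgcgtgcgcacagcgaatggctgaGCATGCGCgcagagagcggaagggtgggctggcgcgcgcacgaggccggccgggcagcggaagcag
Smarcc1: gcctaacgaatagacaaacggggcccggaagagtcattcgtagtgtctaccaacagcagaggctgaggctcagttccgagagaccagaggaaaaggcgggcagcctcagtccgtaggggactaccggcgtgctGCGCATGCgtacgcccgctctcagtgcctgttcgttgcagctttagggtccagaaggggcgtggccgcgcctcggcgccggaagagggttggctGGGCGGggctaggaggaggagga
Smarcb1: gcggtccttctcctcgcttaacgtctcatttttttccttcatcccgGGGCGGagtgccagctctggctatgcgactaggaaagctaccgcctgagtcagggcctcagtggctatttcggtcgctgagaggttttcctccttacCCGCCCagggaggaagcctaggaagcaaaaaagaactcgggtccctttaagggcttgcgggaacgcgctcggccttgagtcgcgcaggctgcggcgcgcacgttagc
Hdac5: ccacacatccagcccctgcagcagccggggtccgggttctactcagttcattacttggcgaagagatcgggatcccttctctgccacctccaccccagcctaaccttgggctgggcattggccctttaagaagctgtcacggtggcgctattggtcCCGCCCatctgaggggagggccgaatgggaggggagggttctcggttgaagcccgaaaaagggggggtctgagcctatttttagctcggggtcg
Brd1: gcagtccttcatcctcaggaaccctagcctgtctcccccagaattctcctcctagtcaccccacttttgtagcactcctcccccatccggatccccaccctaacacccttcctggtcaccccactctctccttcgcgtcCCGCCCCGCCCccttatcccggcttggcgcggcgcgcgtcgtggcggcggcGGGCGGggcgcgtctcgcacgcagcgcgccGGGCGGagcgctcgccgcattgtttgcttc
Smarca4 held 2 NRF1 cores and 3 GC boxes, and Smarcc1 held 1 of each. Smarcb1 held 2 GC boxes, Hdac5 held 1 and Brd1 held 4, and none of these 3 held an NRF1 core. The NRF1 core was in 4 of the 48 windows of these genes (8.33%; Smarca4, Smarcc1, Smarca5 and Brd2) and in 2.26% of all 32851 windows. The GC box was in 72.9% and in 32.7%. The half-site of the androgen receptor, TGTTCT on either strand, was in 5 of the 48 windows (10.4%; Brd3, Cbx1, Chd9, Eed and Kmt5c) and in 16.1% of all windows. None of the 5 stretches shown held it. The ETS core, CCGGAAG, was in 5 of the 48 windows (10.4%) and in 6.91% of all windows. Smarcc1 held 2 ETS cores, which are not in capitals. The CRE half-site, TGACGTC, was in 2.08% and in 2.78%. All windows here are those of every gene with an entry, not only genes on the array, and the differences in share were not tested.

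Values are signed log ratios as deposited, read as log2 of testosterone over placebo, so that -1 is a halving. The direction is likely rather than settled: no source used here states it, and it was taken from the series text, which calls testosterone the experimental channel. Ratios carry no level, so no gene can be called abundant or scarce, and markers of the tissue could not be checked by level. Correlations between arrays over all spots were 0.73 for T2 with T3, 0.48 for T1 with T3 and 0.43 for T1 with T2. The median standard error of a gene was 0.11, which gives a 95% interval of 0.25 to either side. Of markers of other cells, 8 of 25 B-lineage genes were measured, all with means below 0 (from -2.98 for Vpreb3 to -0.25 for Ms4a1), and 7 of them passed. Their median on arrays T1, T2 and T3 was -2.27, -2.29 and -1.81. In the same order, the median was -0.03, -0.82 and -0.45 for the 5 measured muscle genes, and for the 7 erythroid genes it was 0.11, 0.38 and 0.32. For the 22 cell cycle genes it was -0.10, -0.07 and -0.05. The 3 osteoblast genes had medians of 0.42, -1.11 and -0.16, and Col1a1 among them had 1.10, -1.16 and -0.16. The 6 neutrophil genes had medians of 0.56, 0.065 and -0.11. Medians were 0.25, 0.11 and 0.12 for the 8 monocyte and macrophage genes, and -0.30, -0.32 and -0.23 for the 2 megakaryocyte genes. The part of these shifts in the results below was not tested, and in whole marrow fewer cells of a type cannot be told apart from less RNA per cell.

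Among the 46 genes, Smarca4 and Hdac5 fell and Brd1 rose with testosterone, by limma with Benjamini-Hochberg adjustment over all 3462 genes at a threshold of 0.05. That is 3 of 46 genes (6.52%), set against 4.91% of all genes tested. Of the 46, 2 were lower (4.35%, against 3.24% of all genes) and 1 was higher (2.17%, against 1.68%). These shares are near the background. The count was 10 of the 46 without T1, 1 without T2 and 1 without T3, against 623, 35 and 33 of all genes. At an unadjusted p under 0.05, in either direction, there were 16 of the 46 (34.8%, against 28.1% of all genes).

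As deposited, most values of the 46 genes lay below 0. The mean was below 0 for 34 of the 46 genes (73.9%), against 62.4% of all genes, and the median was -0.12, against -0.07 over all genes. On the single arrays (T1, T2, T3) the 46 had medians of -0.12, -0.18 and -0.12, against -0.04, -0.12 and -0.06 for all genes. Of the 46, 23 were below 0 on all 3 arrays (against 33.9% of all genes), 5 were above 0 on all 3 (10.9%, against 18.1%) and 18 had mixed signs. The 5 were Brd1, Chd6, Baz2b, Hdac6 and Smarca2. With T2 turned, 54.3% of the 46 means were below 0, against 48.0% of all genes, and the median was -0.011, against 0.0053. After median centring the share was 65.2%, against 50.2%, and the median -0.053, against -0.001. These shares are a description, since the genes are not independent of each other.

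**Figure D1:**
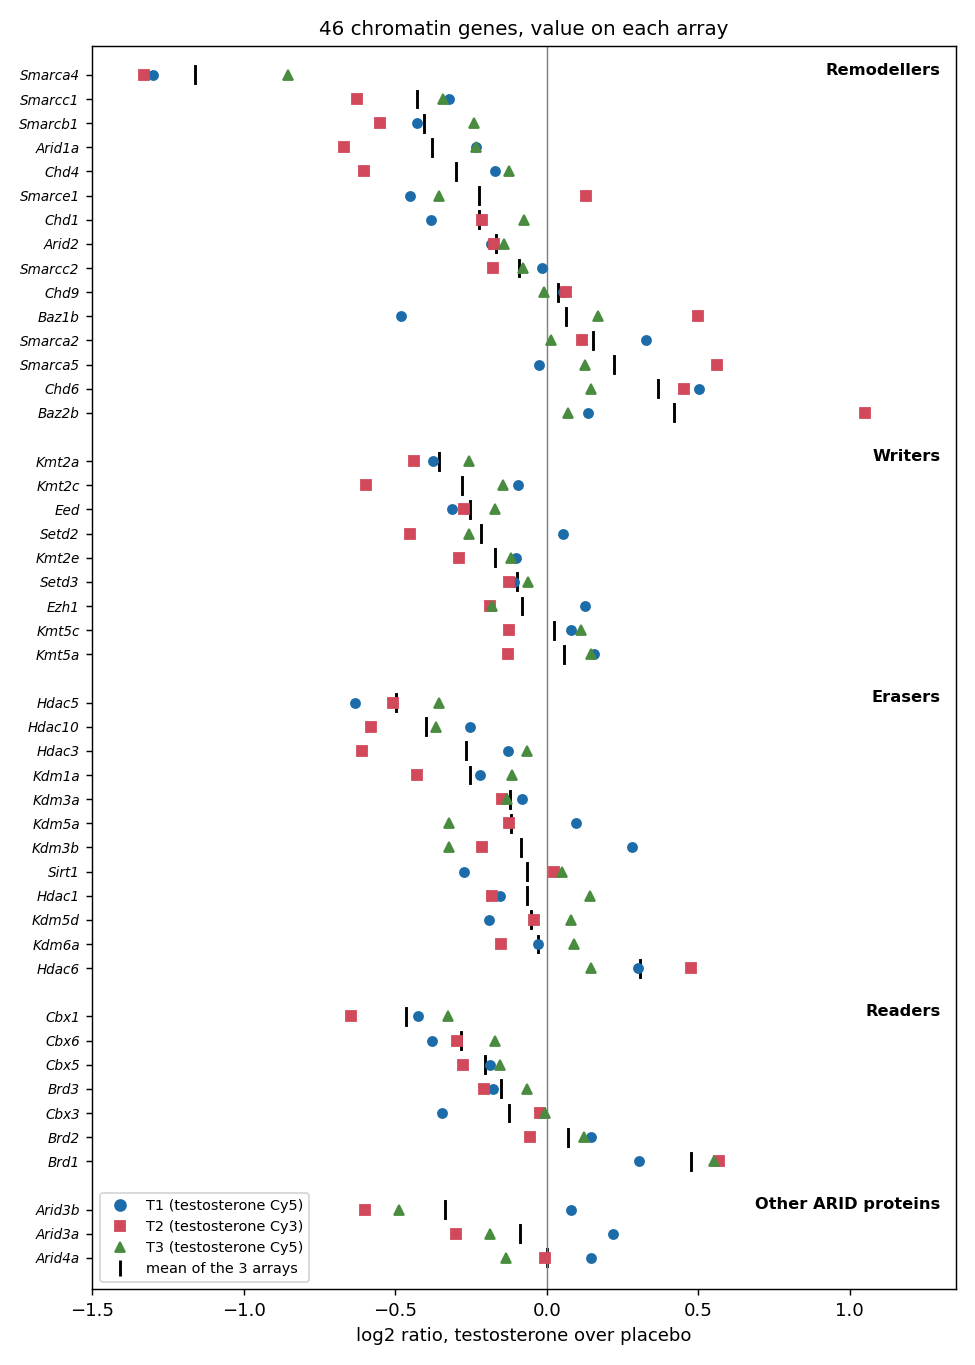
The log2 ratio of testosterone over placebo (horizontal axis) of each of the 46 genes on arrays T1 (circles), T2 (squares) and T3 (triangles), with the mean as a bar, by role. Smarca4 lies between -1.33 and -0.86 on every array, away from the other genes, whose means run from -0.50 to 0.48.

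Smarca4, the BRG1 motor subunit of BAF, had ratios (T1, T2, T3) of -1.30, -1.33 and -0.86. It was lower in all 3 testosterone mice and stood apart from every other gene of the 46. The mean of -1.16 ± 0.27 (SD, n = 3; 95% interval -1.45 to -0.88) is 2.24-fold lower (adjusted p = 0.0027, limma). Among all 3462 genes it had the 23rd lowest mean and the 20th smallest p. From the lowest, it ranked 24 on T1, 23 on T2 and 37 on T3. It was measured at a single spot, so no other spot bears on it. The call held when T1 (-1.09), T2 (-1.08, adjusted p = 0.045) or T3 (-1.31, adjusted p = 0.012) was left out. With the sign of T2 turned, as would be right if every array had been deposited as Cy5 over Cy3, the mean was -0.28 and the adjusted p was 0.999. As deposited, T2 correlated positively over all spots with T1 (0.43) and T3 (0.73), and turning T2 would make both negative. Which sign is right was not tested.

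**Figure D2:**
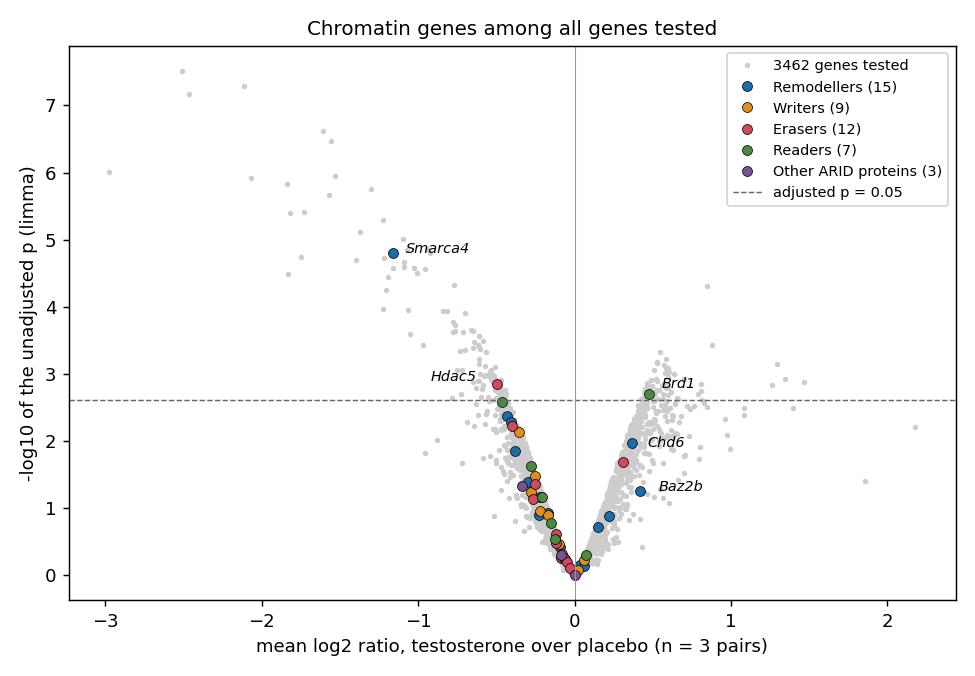
Mean log2 ratio over the 3 pairs (horizontal axis) against -log10 of the unadjusted limma p (vertical axis), for all 3462 genes in grey and the 46 chromatin genes coloured by role. Smarca4, Hdac5 and Brd1 lie above the dashed line of the threshold on the adjusted p, and Smarca4 is at -1.16.

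Of the 46 genes, 7 others are subunits of BAF or of its relative PBAF. None of the 7 passed (limma), 3 had an unadjusted p under 0.05 and 6 had means below 0. Of all genes, 28.1% had such an unadjusted p and 62.4% had means below 0. Smarcc1, a scaffold subunit, had -0.32, -0.63 and -0.34 on T1, T2 and T3 (mean -0.43 ± 0.17, adjusted p = 0.058). Smarcb1, a core subunit that contacts the histone particle, had -0.43, -0.55 and -0.24 (mean -0.41 ± 0.16, adjusted p = 0.064). Arid1a, the DNA-binding subunit of BAF, had -0.23, -0.67 and -0.23 (mean -0.38 ± 0.25, adjusted p = 0.099). All of these were below 0 in each pair, with T2 the lowest. Each passed without T1 (adjusted p = 0.013 for Smarcc1, 0.0449 for Smarcb1 and 0.0235 for Arid1a) and with a dye term (0.0388, 0.0487 and 0.0436). Those settings called 623 and 385 of all genes, against 170 as deposited. T2 alone had testosterone in Cy3, so an effect of dye cannot be told apart from pair T2. The fit with a dye term gives T2 as much weight as T1 and T3 together. Smarcc1, Smarcb1 and Arid1a did not pass without T2 (limma adjusted p = 0.262, 0.273 and 0.346) or without T3 (0.273, 0.273 and 0.291). After median centring none passed either (0.0776, 0.0879 and 0.142). Arid2, its counterpart in PBAF, had -0.17 ± 0.02 over 2 spots, and Smarcc2, the other scaffold subunit, -0.09 ± 0.08. Smarce1, which bends DNA, was lower on T1 (-0.45) and T3 (-0.36) and higher on T2 (0.13), with a mean of -0.22 ± 0.31. Smarca2, the BRM motor that can take the place of Smarca4, was above 0 on all 3 arrays, at 0.33, 0.12 and 0.02 (mean 0.15 ± 0.16, 95% interval -0.09 to 0.40, adjusted p = 0.374). The intervals of Smarca4 and Smarca2 do not overlap, and the difference between them was not tested.

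Among remodellers of other families, Chd6 had 0.50, 0.45 and 0.15 on T1, T2 and T3 (mean 0.37 ± 0.19, adjusted p = 0.089), above 0 in each pair. Another spot of Chd6 had a value on T1 alone, at -0.20, and did not enter the mean. Chd4, the motor of the NuRD deacetylase complex, had -0.17, -0.60 and -0.13 (mean -0.30 ± 0.26, adjusted p = 0.162). Its 2 spots, which carry the same sequence record, had means of -0.33 and -0.26. Chd1, which acts at transcribed genes, had a mean of -0.22 ± 0.15. The ISWI motor Smarca5 had -0.03, 0.56 and 0.13 (mean 0.22 ± 0.31). Its partner Baz1b was at -0.48 on T1, 0.50 on T2 and 0.17 on T3 (mean 0.06 ± 0.50). Baz2b, another ISWI partner, was at 0.14, 1.05 and 0.07 (mean 0.42 ± 0.55, adjusted p = 0.189). Its limma adjusted p was 0.0125 without T1, 0.0326 with a dye term, 0.625 without T2 and 0.293 without T3. T2 was the highest array for all 3 of these ISWI genes, and without T2 their means were -0.16 for Baz1b, 0.10 for Baz2b and 0.05 for Smarca5.

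Over the 15 remodellers, 1 was lower, 0 were higher and 14 did not pass (6.67% passed, against 4.91% of all genes). The median was -0.17, against -0.07 for all genes. Of the 15, 8 were below 0 on all 3 arrays (53.3%, against 33.9% of all genes) and 3 above (20%, against 18.1%). The remodeller median was -0.097 with each array centred on its median (against -0.001) and -0.039 with T2 turned (against 0.0053).

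None of the 9 writers passed (limma at an adjusted p of 0.05), 2 had an unadjusted p under 0.05 (Kmt2a and Eed; 22.2%, against 28.1% of all genes), and the median was -0.17. The median over all genes was -0.07. Without T2 the writer median was -0.102 (against -0.045 for all genes) and with T2 turned 0.044 (against 0.0053). Kmt2a, the MLL methyltransferase of histone H3 at active promoters, had -0.37, -0.44 and -0.26 on T1, T2 and T3 (mean -0.36 ± 0.09, adjusted p = 0.074). It was below 0 in each pair by a similar amount. Eed, the subunit of the Polycomb complex PRC2 that binds its own methyl mark, had -0.31, -0.27 and -0.17 (mean -0.25 ± 0.07, adjusted p = 0.148), and Ezh1, a catalytic subunit of PRC2, had 0.13, -0.19 and -0.18 (mean -0.08 ± 0.18). Kmt2c, a methyltransferase of enhancers, had -0.10, -0.60 and -0.15 (mean -0.28 ± 0.28, adjusted p = 0.193). All 4 of its spots had means below 0, between -0.37 and -0.22, and each was lowest on T2.

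Setd2, which methylates histone H3 along transcribed genes, was at 0.06 on T1, -0.45 on T2 and -0.26 on T3 (mean -0.22 ± 0.25, adjusted p = 0.275). Kmt2e, a relative of Kmt2a, had -0.17 ± 0.10. Setd3, known mainly for methylating actin, had -0.10 ± 0.03. The methyltransferases of histone H4 had the only means above 0 among writers, 0.06 ± 0.16 for Kmt5a (adjusted p = 0.744) and 0.02 ± 0.13 for Kmt5c (adjusted p = 0.907). Both were above 0 on T1 and T3 and below 0 on T2.

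Hdac5, a class IIa deacetylase that shuttles between nucleus and cytoplasm, was the single eraser of 12 that passed (8.33%, against 4.91% of all genes). Its ratios were -0.63 on T1, -0.51 on T2 and -0.36 on T3, below 0 in each pair (mean -0.50 ± 0.14, 95% interval -0.74 to -0.26, 1.41-fold lower, adjusted p = 0.0467). Leaving out T2 ended the call (adjusted p = 0.223), as did leaving out T3 (adjusted p = 0.255) and median centring (-0.43, adjusted p = 0.0613). It was also lost when each spot was fitted by itself (0.0521) and with T2 turned (-0.16, 0.999).

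The other deacetylases split in direction. Hdac10, known for deacetylating polyamines, had -0.25, -0.58 and -0.37 (mean -0.40 ± 0.17, adjusted p = 0.068), and passed without T1 (adjusted p = 0.0145) and with a dye term (0.046). It did not pass without T2 (limma adjusted p = 0.279), without T3 (0.293) or after median centring (0.0896). Hdac6, a cytoplasmic deacetylase of tubulin, was the one eraser with a mean above 0, at 0.30, 0.48 and 0.15 (mean 0.31 ± 0.17, adjusted p = 0.117), and it was above 0 in each pair. Another spot of Hdac6, measured on T1 alone, had -0.13 and did not enter the mean. Among class I enzymes, Hdac3, the catalytic subunit of nuclear corepressor complexes, had -0.13, -0.61 and -0.06 (mean -0.27 ± 0.30, adjusted p = 0.217), and Hdac1, shared by several corepressor complexes, had -0.06 ± 0.18. The NAD-dependent deacetylase Sirt1 had -0.27, 0.02 and 0.05 (mean -0.07 ± 0.18).

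None of the demethylases passed (limma), and Kdm1a alone had an unadjusted p under 0.05. Kdm1a, the flavin-dependent LSD1, had -0.22, -0.43 and -0.11 (mean -0.25 ± 0.16, adjusted p = 0.168). Kdm3a, described as a coactivator of the androgen receptor, had -0.08, -0.15 and -0.13 (mean -0.12 ± 0.03, adjusted p = 0.437). Kdm3b had 0.28, -0.21 and -0.32 (mean -0.08 ± 0.32), and Kdm5a 0.10, -0.13 and -0.32 (mean -0.12 ± 0.21), with T1 on the other side of 0 from T2 and T3 in both. The Y-linked Kdm5d had -0.05 ± 0.14 (95% interval -0.29 to 0.19) and the X-linked Kdm6a -0.03 ± 0.12 (95% interval -0.26 to 0.21). Over the 12 erasers the median was -0.10, against -0.07 for all genes. It was -0.011 with T2 turned (against 0.0053) and -0.031 after median centring (against -0.001). Of the 12 means, 11 were below 0 (91.7%, against 62.4% of all genes). After median centring 7 were (58.3%, against 50.2%), since Sirt1 (0.0035), Hdac1 (0.0057), Kdm5d (0.019) and Kdm6a (0.041) crossed 0.

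Brd1, a bromodomain protein that holds together a histone acetyltransferase complex, was the single reader of 7 that passed (14.3%, against 4.91% of all genes). Its mean was the highest of the 46 as deposited, but ranked 8 with T2 turned, 3 without T3 and 2 with a dye term. Its ratios were 0.31 on T1, 0.57 on T2 and 0.55 on T3, above 0 in each pair (mean 0.48 ± 0.15, 95% interval 0.23 to 0.72, 1.39-fold higher, adjusted p = 0.0475). The call ended when T2 was left out (0.43, adjusted p = 0.231), when T3 was (0.44, adjusted p = 0.28) and with T2 turned (0.097, adjusted p = 0.999). It was also lost with values required on 2 arrays only (0.0505) and when each spot was fitted by itself (0.0521).

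The heterochromatin proteins that bind methylated histone H3 all had means below 0. Cbx1 had -0.43, -0.65 and -0.33 on T1, T2 and T3 (mean -0.47 ± 0.16, 95% interval -0.71 to -0.22) and lay just past the threshold, with an adjusted p of 0.0503. It passed without T1 (adjusted p = 0.013), with a dye term (0.0366), after centring and scaling (0.0448) and with the robust option of eBayes (0.0493). Cbx1 did not pass without T2 (limma adjusted p = 0.234), without T3 (0.273) or after median centring alone (0.064). Cbx5 had -0.19, -0.28 and -0.15 as the average of 4 spots (mean -0.21 ± 0.06, adjusted p = 0.209), and the 4 spot means lay between -0.30 and -0.11. Cbx3 had -0.35 on T1 and -0.02 and -0.004 on T2 and T3 (mean -0.12 ± 0.19). As gene averages, all 3 were below 0 on every array. Cbx6, a Polycomb reader, had -0.38, -0.30 and -0.17 (mean -0.28 ± 0.11, adjusted p = 0.123). Of the BET proteins, which bind acetylated histones, Brd3 had -0.15 ± 0.07 and Brd2 had 0.15, -0.05 and 0.12 (mean 0.07 ± 0.11).

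The 3 other ARID proteins did not pass and had mixed signs. Arid3b had 0.08, -0.60 and -0.49 (mean -0.34 ± 0.36, adjusted p = 0.175), and passed without T1 (-0.54, adjusted p = 0.0047). It did not pass without T2 (limma adjusted p = 0.531), without T3 (0.532) or with a dye term (0.11). Arid3a, known as Bright and as an activator of immunoglobulin heavy chain genes in B cells, had 0.22, -0.30 and -0.19 (mean -0.09 ± 0.27, adjusted p = 0.664). Arid4a, a partner of the retinoblastoma protein, had 0.15, -0.004 and -0.14 (mean 0.002 ± 0.14). In all 3 of these genes T1 was above 0 and T2 and T3 were below it.

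**Figure D3:**
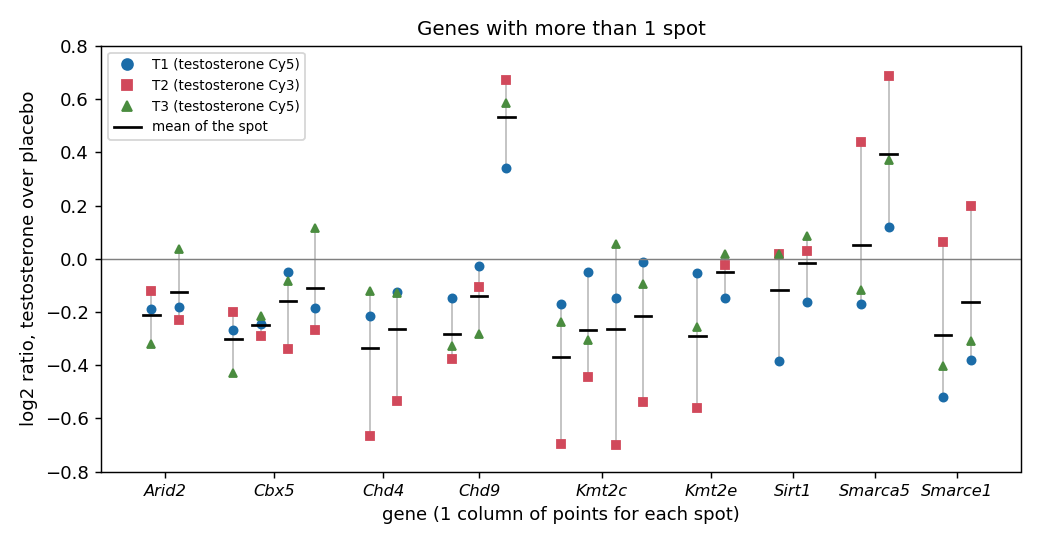
Log2 ratio of testosterone over placebo (vertical axis) for each spot of the 9 genes with more than 1 spot, on T1 (circles), T2 (squares) and T3 (triangles), with the mean of the spot as a bar. The spots of a gene lie on the same side of 0 by their means except for Chd9, where 1 spot is at 0.53 and the other 2 at -0.14 and -0.28.

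The 46 genes were read from 60 spots, and 9 genes had more than 1. Among these spots, those of a gene differed in the sign of their mean for Chd9 alone, a relative of Chd6. A spot of Chd9 had 0.34, 0.67 and 0.59 on T1, T2 and T3 (mean 0.53 ± 0.17, adjusted p = 0.051 when each spot was fitted by itself). Another, annotated with the same sequence record, had -0.03, -0.11 and -0.28 (mean -0.14 ± 0.13), and the other had -0.15, -0.38 and -0.33 (mean -0.28 ± 0.12, adjusted p = 0.13). The gene mean of 0.04 ± 0.04 (adjusted p = 0.828) is thus an average over spots that disagree, and it was -0.14 when the median of the spots was taken. The 2 spots of Smarca5 had means of 0.05 and 0.39, those of Kmt2e -0.29 and -0.05, and those of Smarce1, of the same sequence record, -0.29 and -0.16.

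Chromatin genes outside these families were taken from lists of other remodellers, writers, erasers, readers, histone chaperones and structural proteins. Of 277 listed, 95 were measured, 3 were lower, 0 were higher and 92 did not pass, with a median of -0.11. The share that passed (3.16%) is below that of all genes (4.91%). Among these lists the 5 other measured subunits of BAF and PBAF included Bcl7a, which had -1.58, -1.02 and -1.06 on T1, T2 and T3. It was lower in each pair, with a mean of -1.22 ± 0.31 (2.33-fold, adjusted p = 0.0029), near that of Smarca4. Pbrm1, the bromodomain subunit of PBAF, had -0.31 ± 0.06 (adjusted p = 0.096), Dpf2 -0.43 ± 0.33, Actl6a -0.27 ± 0.09 and Actl6b, known from neurons, 0.02 ± 0.26. With these, 11 of 13 measured subunits of BAF and PBAF had means below 0 (84.6%, against 62.4% of all genes), and 2 passed (15.4%, against 4.91%). The subunits were grouped with their values known, so these shares are a description.

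Cecr2, a bromodomain partner of ISWI motors, was lower, at -2.39 on T1, -1.53 on T2 and -1.34 on T3 (adjusted p = 0.0029). Ctcf, the insulator protein that anchors chromatin loops, had -0.44, -0.58 and -0.34 (mean -0.46 ± 0.12, 1.37-fold lower, adjusted p = 0.049). The adjusted p of Ctcf was 0.231 when T2 was left out, 0.273 when T3 was, 0.062 after median centring and 0.999 with T2 turned. The cohesin subunit Smc1a had 0.43, 0.39 and 0.40 (mean 0.41 ± 0.02, adjusted p = 0.052), and its partner Rad21 had -0.33 ± 0.06 (adjusted p = 0.084).

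No writer, eraser or chaperone of these lists passed (limma, adjusted p under 0.05). An unadjusted p under 0.05 was found for 5 of 19 writers, 4 of 14 erasers and 3 of 10 chaperones, close to the 28.1% of all genes. The share was 35% of 20 other remodellers, 38.9% of 18 readers and 40% of 15 structural proteins. The Polycomb subunit Pcgf1 had 0.37 ± 0.11 (adjusted p = 0.070) and Prdm2, a methyltransferase of histone H3, 0.34 ± 0.06 (adjusted p = 0.079). The corepressor subunit Tbl1x had -0.41 ± 0.19 (adjusted p = 0.068), and the Y-linked Uty, a relative of Kdm6a, 0.36 ± 0.05 (adjusted p = 0.070). Trim28, a corepressor that binds heterochromatin proteins, had -0.57 ± 0.35 (adjusted p = 0.058). Of histone chaperones, Set had -0.32 ± 0.15 (adjusted p = 0.105), and the elongation factor subunit Supt4a -0.28 ± 0.17 (adjusted p = 0.145).

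**Figure D4:**
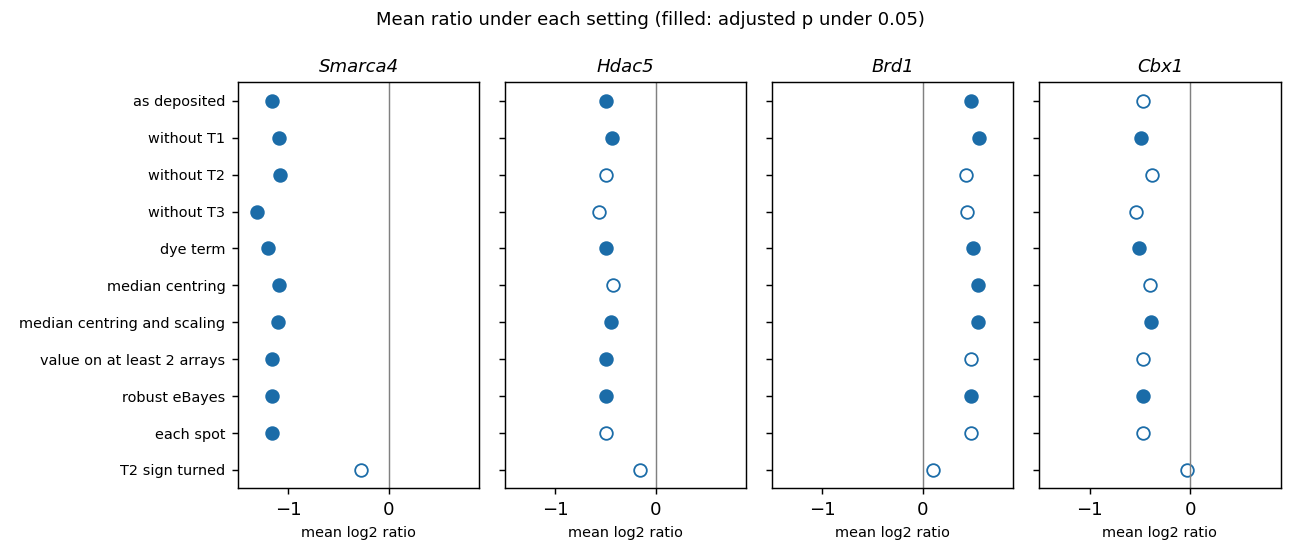
Mean log2 ratio (horizontal axis) of Smarca4, Hdac5, Brd1 and Cbx1 under each setting of the analysis (rows), with filled points for an adjusted p under 0.05. Smarca4 is filled in every row shown but the last, in which the sign of T2 is turned and its mean is -0.28.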

How the data were processed

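Two-colour arrays of bone marrow RNA from 3 mouse pairs, testosterone against placebo, were analysed from the authors' deposited log2 ratios, 1 per spot and array. The base is inferred from the range of the values, and a natural log would make every fold larger. The sources used here do not give the scanner, background correction or normalization. Of 11552 spots, T1 had values for 9007, T2 for 6771 and T3 for 6982. Spot brightness was not analysed here, so signal over background is unknown. The number of arrays limits the precision.

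Spots with exactly 1 annotated gene, matched by Entrez ID to RefSeq genes of GRCm38.p6 (7880 of 8050), and with 3 values were averaged per gene. The mean of each gene was tested against 0, two-sided, in limma 3.58.1 under R 4.3.3 (lmFit, then eBayes). P-values were adjusted by Benjamini-Hochberg over all genes tested. Replicates are separate mouse pairs. The fit was also run on simulated data, with noise drawn independently for each gene and array. That simulation held no shift of a whole array and no dye effect, and its outcome is not used here. The genes, the lists and the naming rule were chosen with earlier results of these data known. Values are given for each gene that passed, the 4 of smallest p and both extremes in each role, genes with spots of opposite sign, and, in the outside lists, those that passed and the 2 of smallest p. Other members are given by mean and SD, and Pbrm1, Dpf2, Actl6a, Actl6b and Rad21 were added after their values were seen. Roles were assigned by symbol. The alternatives are the sign of T2 turned, each array left out, a dye term, median centring with and without scaling, a threshold of 0.10, genes with values on 2 or more arrays, eBayes with its robust option, the median of spots, and each spot fitted by itself.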

Additional observations from a re-analysis of the deposited data

How the results depend on the processing

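Each value is already a ratio within a mouse pair, so the test of the mean against 0 is paired. With 1 group, no other use of the pairing was tried. With 3 arrays, Smarca4 passed under every alternative but the turned sign of T2. The count of changed genes was 3 of the 46, 3 of 95 other chromatin genes and 170 of all genes. With T2 turned it was 0, 0 and 0 (limma; 0, 1 and 19 at an unadjusted p under 0.05). With a dye term it was 9, 8 and 385, with centring and scaling 5, 8 and 310 and at a threshold of 0.10 it was 10, 15 and 498. The dye term cannot separate dye from pair T2, the only pair with testosterone in Cy3, and it raises the weight of T2. Each spot fitted by itself gave 1 of the 46 and 104 in all, with each gene given by its spot of smallest p. That adjustment was over 6039 spots, and Hdac5 and Brd1, with 1 spot each, kept their means. Median centring gave 100 in all. Leaving out an array gave 1 to 10 of the 46, 2 to 9 others and 33 to 623 in all, the highest without T1. Of all changed genes 34.1% were higher, against 65.8% after centring and scaling.

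With T2 turned the median was -0.039 for remodellers, 0.044 for writers, -0.011 for erasers, -0.022 for readers, -0.011 for the 46 and 0.0053 for all genes. With median centring it was -0.097 for remodellers, -0.031 for erasers, -0.053 for the 46 and -0.001 for all genes, and with scaling added -0.104, -0.036, -0.065 and -0.00027. Leaving out an array gave -0.181 to -0.102 for erasers and -0.164 to -0.111 for the 46.

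No gene that passed changed sign. Of the rest, with T2 turned the sign changed for Hdac6 (-0.01), Kdm1a (0.032), Hdac3 (0.139), Kdm3b (0.057), Hdac1 (0.057), Kdm6a (0.072), Arid3b (0.064), Arid3a (0.111), Arid1a (0.067), Chd4 (0.102), Baz2b (-0.281), Smarca5 (-0.154), Smarcc2 (0.027), Chd9 (-0.0051), Baz1b (-0.271), Kmt2c (0.118), Setd2 (0.082), Kmt2e (0.023), Ezh1 (0.044), Trim28 (0.038), Set (0.004) and Supt4a (0.0397). Median centring did so for Sirt1 (0.0035), Hdac1 (0.0057), Kdm5d (0.019) and Kdm6a (0.041), with scaling added for Hdac1 (0.021), Kdm5d (0.019) and Kdm6a (0.054), the median of spots for Chd9 (-0.139) and a dye term for Kmt5c (-0.014). Leaving out an array gave ranges that cross 0 for Arid3a (-0.243 to 0.0165), Arid4a (-0.0695 to 0.071), Baz1b (-0.157 to 0.335), Kdm3b (-0.268 to 0.035), Kdm5d (-0.117 to 0.0195), Kdm6a (-0.089 to 0.032), Kmt5c (-0.022 to 0.0955) and Sirt1 (-0.124 to 0.037). Besides those named above, Chd6, Pcgf1, Prdm2, Uty and Smc1a passed with centring and scaling (adjusted p = 0.0491, 0.0395, 0.0421, 0.0395 and 0.0334), and Trim28 and Tbl1x with a dye term (0.0354 and 0.0454). The cause of these changes was not tested.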

Other observations

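Genes of these families that lacked a value on some array gave the following ratios. Chd3, another motor of the NuRD complex, had -0.72 on T2 and -0.23 on T3. Dnmt3a, a DNA methyltransferase, had -0.26 on T1 and -0.28 on T2, and the demethylase Kdm4c -0.13 on T2 and -0.09 on T3. The Polycomb reader Cbx2 had 0.04 on T1 and -0.14 on T3. On single arrays, both spots of Hdac9 had -0.30 on T1, Kdm5b had -0.31 on T3, Sirt3 0.27 on T1 and Smarcad1 0.07 on T1. Spots left out of measured genes for lack of values had -0.20 on T1 for Chd6, -0.13 on T1 for Hdac6 and -0.03 on T1 for Chd9. That of Kdm6a had -0.07 on T1 and 0.06 on T2.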
